A study of Homo sapiens with 6 samples.

Results

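The genes encoded by the human mitochondrial genome were described in U2OS cells, a human osteosarcoma line. The members were all 37 genes annotated on chromosome M in GENCODE 29, namely 13 mRNAs, 2 rRNAs and 22 tRNAs. All 37 stood in both deposited tables, among 56982 identifiers common to both, and all 37 passed the filter on low values that left 15001 genes. The tRNA gene MT-TW did so only through its G3C2 libraries. Of the 6 libraries, 3 were from G3C2, an edited clone whose genotype label reads ZFP36L1 deficient after CRISPR/Cas9 targeting, and 3 were from wild-type (WT) U2OS cells. ZFP36L1 is an RNA-binding protein that promotes decay of cytosolic mRNAs with AU-rich elements. All cultures were in log phase at 65 to 75% confluency, and mRNA was enriched with oligo(dT) beads. With 1 clone, an effect of the edit and an effect of picking that clone cannot be told apart. The libraries whose titles carry no suffix, called replicate 1 here, came in one table (the first table), and those titled b and c came in another (the second table). The tables were scaled apart, so G3C2 was set against WT within a table. Values are FPKM, a level per kilobase of gene and per library, scaled to the depth that the authors used as divisor.

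Mitochondrial DNA is a small circle transcribed in long units that cover nearly its whole length. Genes annotated on the plus strand are copied from the heavy strand, and those on the minus strand from the light strand. The 28 plus-strand genes held 12 mRNAs, both rRNAs and 14 tRNAs, and the 9 minus-strand genes held MT-ND6 and 8 tRNAs. Excision of the tRNAs frees most mRNAs and rRNAs from the precursor. The mRNAs then receive short poly(A) tails, except MT-ND6, which is known to lack one. The 13 proteins are core subunits of respiratory complexes I, III and IV and of ATP synthase, and the rRNAs build the mitochondrial ribosome.

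Stretches of sequence bear on how these genes can be counted. They are from GENCODE 29 transcripts, build GRCh38, 5′ to 3′ on the gene's own strand. MT-ATP8 and MT-ATP6 share 46 bases of the same mRNA at chrM:8527-8572, so a read there belongs to both. In capitals are the start codon of MT-ATP6 and the stop codon of MT-ATP8.
MT-ATP8/MT-ATP6: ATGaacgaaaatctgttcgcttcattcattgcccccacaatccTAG
MT-ND4L and MT-ND4 lie on another shared mRNA and overlap by 7 bases, shown in capitals within chrM:10745-10781.
MT-ND4L/MT-ND4: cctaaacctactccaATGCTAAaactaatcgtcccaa

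Of the 13 annotated mRNAs, 6 end in part of a stop codon. The tail added after cleavage completes it to TAA, which ties translation of these mRNAs to the tail that oligo(dT) also captures. Their last 21 bases are shown with the encoded part of the stop codon in capitals.
MT-ND1: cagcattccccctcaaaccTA
MT-ND2: cttttatactaataatcttaT
MT-CO3: ccatctattgatgagggtctT
MT-ND3: aaggattagactgaaccgaaT
MT-ND4: tcattaccgggttttcctctT
MT-CYB: acaaaatactcaaatgggccT

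The tRNA genes for asparagine (MT-TN, chrM:5657-5729, minus strand) and cysteine (MT-TC, chrM:5761-5826, minus strand) had the most reads of the tRNA genes in all 4 libraries of the second table except WT replicate c, where MT-TP (996 reads) exceeded MT-TC (853 reads). The 31 bases between them hold the origin of light-strand replication. Capitals mark the anticodons.
MT-TN: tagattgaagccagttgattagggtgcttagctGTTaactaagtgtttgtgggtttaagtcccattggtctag
MT-TC: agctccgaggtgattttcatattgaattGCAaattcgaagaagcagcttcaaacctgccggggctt

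ZFP36L1 mRNA, the targeted transcript, had FPKM of 238.1, 105.1 and 82.4 in G3C2 replicates 1, b and c, against 165.2, 57.1 and 127.5 in WT. It was not lower throughout in the clone (limma log2 difference 0.26, SE 0.33, adjusted p = 0.752), and an edit need not lower the mRNA. Of 8 markers of the osteoblast lineage and mesenchyme, RUNX2, COL1A1, SPARC and VIM had an FPKM of at least 1 in every library. SP7, ALPL, COL1A2 and BGLAP did not in any. Of 4 epithelial markers, EPCAM and KRT8 did in every library, CDH1 did in WT replicate 1 alone, and the 3 leukocyte and 2 endothelial markers stayed below 1 in all 6. Since FPKM steps by what 1 read is worth, reads per gene were recovered. All values above 0 of mitochondrial genes, 17 per library in the first table and 36 or 37 in the second, came out whole within 0.02 reads. Mitochondrial genes held 773091, 451216 and 428586 reads in G3C2 replicates 1, b and c, and 672878, 618206 and 768553 in WT. The labels do not say whether libraries came from separate cultures, so the p-values here rest on a spread that may be technical. Less RNA per cell and fewer cells expressing a gene cannot be told apart in bulk RNA.

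The mitochondrial genome's share of all expression was lower in G3C2 in both tables. Its 37 genes took 4.92, 7.39 and 6.67% of summed FPKM in G3C2 replicates 1, b and c, against 5.20, 8.72 and 13.8% in WT. The G3C2 library lay below the WT library in the first table, and both G3C2 libraries lay below both WT libraries in the second. WT replicate c stood apart, with the highest share of the 4 libraries of its table. The mean difference of the log2 share, G3C2 minus WT, was -0.46 (SD of the 3 label differences 0.52). An exact permutation test of genotype within tables, two-sided, gave p = 0.167, the smallest that its 12 arrangements can give. Without WT replicate c the difference was -0.21, and without replicate c of both groups it was -0.16. Fewer mitochondrial transcripts and more of other transcripts cannot be told apart in a share.

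**Figure D1:**
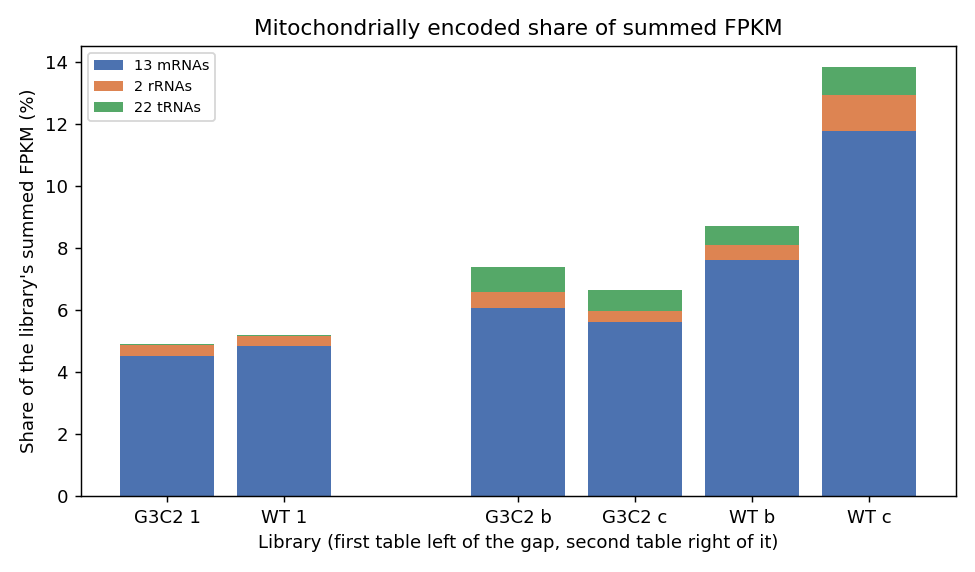
Share of summed FPKM (%) taken by mitochondrial mRNAs, rRNAs and tRNAs (stacked bars) in each library, with the first table left of the gap. WT replicate c reaches 13.8%, and both G3C2 bars of the second table, 7.39 and 6.67%, lie below both WT bars.

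The mRNAs made up most of this. They took 4.53, 6.07 and 5.61% of summed FPKM in G3C2 replicates 1, b and c, against 4.86, 7.63 and 11.8% in WT (mean log2 difference -0.50, SD 0.51, n = 3 labels, exact permutation p = 0.167). Without WT replicate c the difference was -0.26, and without replicate c of both groups -0.21. The rRNAs took 0.354, 0.513 and 0.377% in G3C2 and 0.302, 0.492 and 1.14% in WT. The tRNA genes took 0.0394, 0.803 and 0.681% in G3C2 and 0.046, 0.608 and 0.899% in WT. Long genes weigh more in reads than in FPKM. As a share of all recovered reads of the second table, mitochondrial genes had 1.73% (Wilson 95% interval 1.72 to 1.73) and 1.66% (1.65 to 1.66) in G3C2 replicates b and c. WT replicates b and c had 2.13% (2.13 to 2.14) and 3.40% (3.39 to 3.41). For replicate 1 the total of reads was not recovered. Against the divisor behind its FPKM the shares were 3.46% in G3C2 and 3.59% in WT, which are not on the scale of the other 4. These intervals cover counting error only.

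The top and bottom of the order of mRNA levels was the same in every library. MT-CO1, MT-CO2 and MT-CO3, the mitochondrial subunits of cytochrome c oxidase (complex IV), held the top places in that order in all 6 libraries. MT-ATP8 was last in all 6, with MT-ND5 and MT-ND6, subunits of complex I, next to it. In the second table MT-ND6 exceeded MT-ND5 in each of the 4 libraries, by 486.6 against 466.1 FPKM in G3C2 replicate c, for example. In the first table MT-ND5 exceeded MT-ND6 in both. The highest mRNA exceeded the one next to last by 9.19, 7.36 and 8.0-fold in G3C2 replicates 1, b and c and by 10.6, 7.76 and 10.3-fold in WT. The genes between, such as MT-ND4L, MT-ND4 and MT-ATP6, took different places in different libraries.

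**Figure D2:**
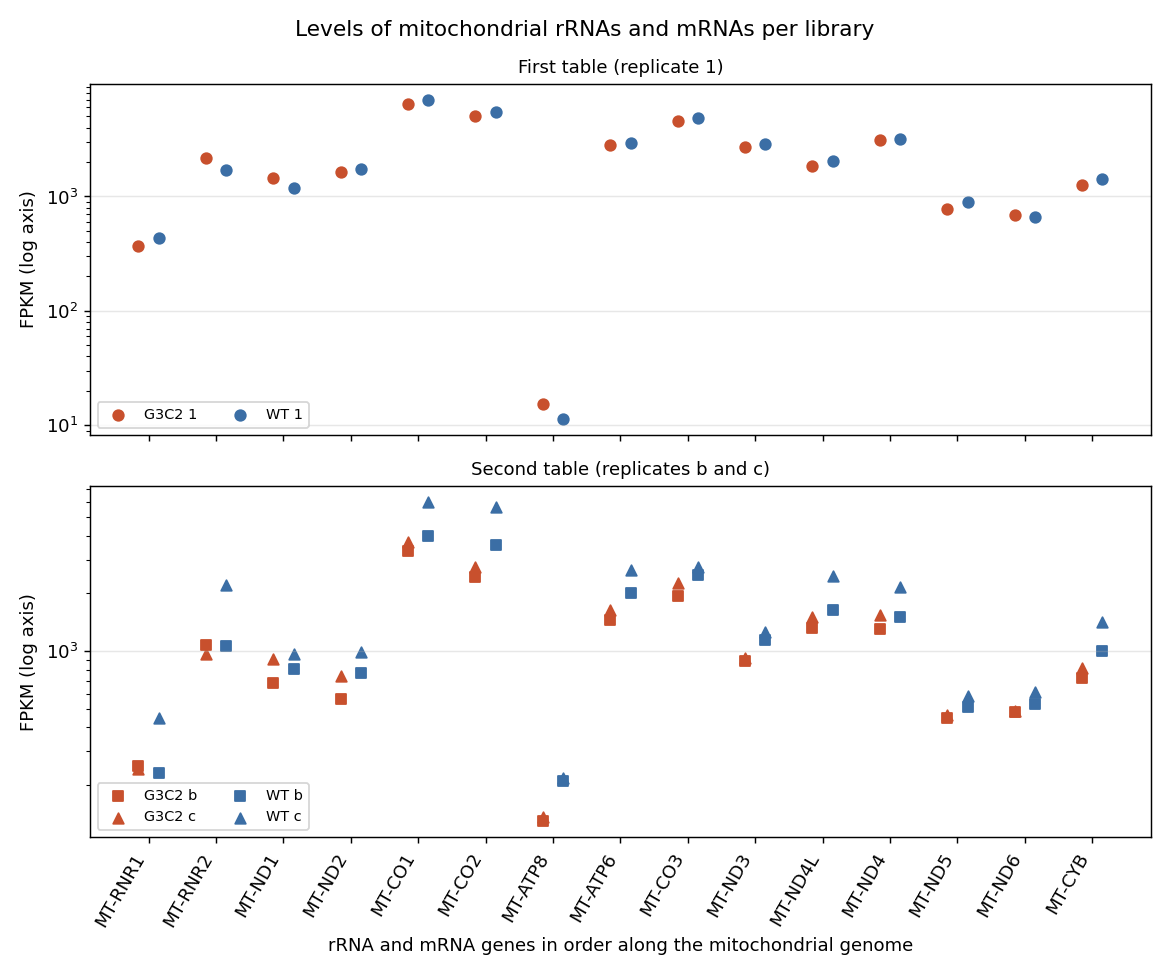
FPKM (log axis) of the 2 rRNAs and 13 mRNAs in genome order, G3C2 left of WT, in the first table (top) and the second (bottom). MT-CO1 is highest and MT-ATP8 lowest among the mRNAs of each library, and MT-ATP8 lies at 15.35 and 11.35 FPKM in the first table.

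Complex IV subunits, which receive electrons from cytochrome c, were lower in G3C2 under every replicate label. MT-CO1, the catalytic subunit, had 6384, 3316 and 3728 FPKM in G3C2 replicates 1, b and c, against 7018, 3988 and 5998 FPKM in WT. MT-CO2, which takes up the electrons, had 5058, 2449 and 2754 FPKM in G3C2 and 5437, 3570 and 5614 FPKM in WT. In the second table the G3C2 values of both genes lay below both WT values, as for 17.9% of tested genes. MT-CO2 had the most negative limma difference of the 13 mRNAs, -0.56 on the log2(FPKM + 1) scale (SE 0.37, adjusted p = 0.552). Its log2 difference was -0.10, -0.54 and -1.03 for replicates 1, b and c. Without WT replicate c the limma difference was -0.31 for MT-CO2 and -0.16 for MT-CO1, against -0.36 with it for MT-CO1. MT-CO3 had 4521, 1935 and 2258 FPKM in G3C2 and 4873, 2483 and 2759 FPKM in WT (limma difference -0.25, SE 0.30, adjusted p = 0.740). Its G3C2 values lay below the WT values of the same table, as for 14.8% of tested genes. The first table holds replicate 1 alone, so groups cannot overlap there.

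MT-CYB, cytochrome b and the only mitochondrial subunit of complex III, had 1264, 723.5 and 818.3 FPKM in G3C2, against 1413, 1004 and 1421 FPKM in WT. Its G3C2 values lay below the WT values of the same table, as they did for 14.8% of tested genes. The limma difference was -0.48 (SE 0.28), and its adjusted p of 0.505 was the lowest of the 13 mRNAs. Without WT replicate c the difference was -0.29. MT-ATP6, which forms the proton path of ATP synthase, had 2839, 1458 and 1641 FPKM in G3C2 and 2939, 2005 and 2637 FPKM in WT (difference -0.40, SE 0.31, adjusted p = 0.603).

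The 7 complex I genes, subunits of the membrane arm that pumps protons, split. MT-ND2, MT-ND3, MT-ND4L, MT-ND4 and MT-ND5 were lower in G3C2 under all 3 labels. MT-ND2 had 1638, 563.4 and 740.3 FPKM in G3C2 and 1742, 769.2 and 994.7 FPKM in WT. MT-ND3 had 2694, 885.0 and 923.1 FPKM in G3C2 and 2858, 1146 and 1263 FPKM in WT. For these 2 genes the G3C2 values lay below the WT values of the same table, as for 14.8% of tested genes. MT-ND5 had 783.5, 450.8 and 466.1 FPKM in G3C2 and 902.0, 513.6 and 581.5 FPKM in WT, a small step (difference -0.24, SE 0.21). Its G3C2 values also lay below the WT values of the same table.

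MT-ND1, the mRNA nearest the rRNAs, had no steady direction. It had 1438, 685.5 and 909.6 FPKM in G3C2, against 1180, 803.8 and 961.9 FPKM in WT, so it was higher in G3C2 in the first table and overlapped in the second. Its limma difference was -0.01 (SE 0.27, adjusted p = 0.993). MT-ND6, the light-strand mRNA, had 694.9, 483.2 and 486.6 FPKM in G3C2 and 663.3, 533.1 and 609.1 FPKM in WT. It was higher in G3C2 in the first table and lower in the second (difference -0.13, SE 0.22, adjusted p = 0.816).

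Counted over the mRNAs, 10 of 13 were lower in G3C2 under all 3 replicate labels, where 18.6% of the 15001 tested genes were. Both G3C2 libraries of replicates b and c lay below both WT libraries for 11 of 13, where they did for 17.9% of tested genes. The exceptions were MT-ND1 and MT-ND4. In both tables at once 9 of 13 lay below, against 14.8% of tested genes. Transcripts cut from the same precursor are not independent, so these counts do not stand for that many separate measurements. The median log2 difference of the 13 was -0.09, -0.36 and -0.49 for replicates 1, b and c, beside -0.08, -0.01 and 0.07 over all tested genes. In replicate 1 the median of the mRNAs was thus close to that of all genes. Divided by the median of the tested genes of its library, the count of mRNAs lower under every label was 6. The 18.6% above is for undivided values, and no share of tested genes is given on this scale.

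No mitochondrial gene passed the test over all genes. By limma 0 of 37 had an adjusted p under 0.05, where 0.0467% of tested genes did, and 1 of 37, MT-TW, was under 0.05 before adjustment, where 13.6% of tested genes were. MT-TW had passed the filter on low values through G3C2 libraries alone, so its difference is no support for a change. The replicate labels as a block left 1 call over all genes, against 7, and 0 among the 37. The 13 mRNAs had limma differences between -0.56 and -0.01 with a median of -0.32, beside 0.01 over all tested genes, and adjusted p between 0.505 and 0.993. Without WT replicate c this median was -0.18. Limma-voom, run on reads recovered for replicates b and c, tested 32 mitochondrial genes and called 0, where 0.05% of tested genes were called. Before adjustment 8.21% of tested genes were under 0.05 and 1 of the 32 was, MT-ATP8 (difference -0.68, SE 0.26, adjusted p = 0.542). The leave-outs and alternatives run gave no call among these genes either.

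**Figure D3:**
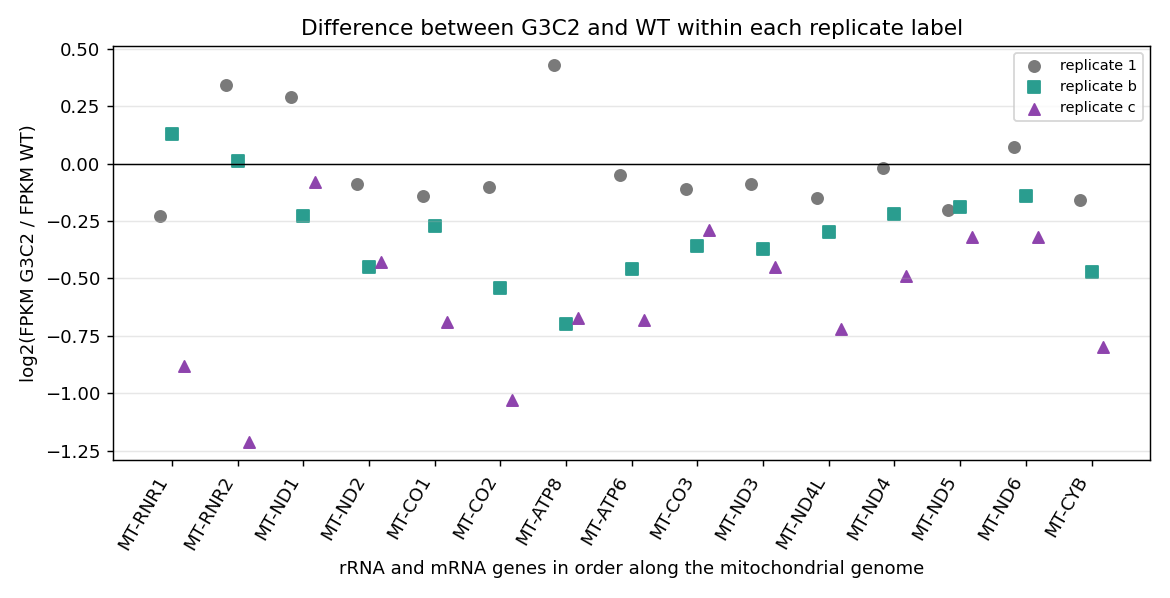
log2 ratio of FPKM, G3C2 over WT, for the rRNAs and mRNAs in genome order, with a symbol for each replicate label. Replicates b and c lie below 0 for all 13 mRNAs, and replicate 1 lies above 0 for MT-ND1, MT-ATP8 and MT-ND6.

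The rRNAs, nearest the heavy-strand promoters, had limma differences close to the median of the mRNAs, -0.33 (SE 0.29, adjusted p = 0.646) for MT-RNR1 and -0.29 (SE 0.40, adjusted p = 0.774) for MT-RNR2, but with signs that varied between labels. MT-RNR2, the large rRNA, had 2156, 1076 and 962.2 FPKM in G3C2 and 1701, 1070 and 2226 FPKM in WT. MT-RNR1, the small rRNA, had 366.8, 252.2 and 241.8 FPKM in G3C2 and 430.4, 230.7 and 446.3 FPKM in WT. Both overlapped between groups in the second table, and WT replicate c was the highest there for both. From WT replicate b to c, MT-RNR2 differed by 2.08-fold and MT-RNR1 by 1.93-fold, more than any mRNA, of which MT-CO2 differed most (1.57-fold). Between G3C2 replicates b and c the same ratios, c over b, were 0.894 and 0.959. The summed rRNAs were 0.0781, 0.0846 and 0.0672 of the summed mRNAs in G3C2 replicates 1, b and c, against 0.0623, 0.0645 and 0.0965 in WT. The mean log2 difference of this ratio was 0.07 (SD 0.51, n = 3 labels, exact permutation p = 0.833), without WT replicate c it was 0.27, and without replicate 1 it was -0.07. The rRNA tails are shorter than those of the mRNAs, so oligo(dT) selection samples them unevenly, and these are not rRNA contents of the cells.

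MT-ND6, the light-strand mRNA, stood higher relative to the heavy-strand mRNAs in G3C2. The level of MT-ND6, set against the geometric mean of the 12 heavy-strand mRNAs, was 0.442, 0.506 and 0.446 in G3C2 replicates 1, b and c, against 0.413, 0.429 and 0.380 in WT. Within each table the G3C2 values lay above the WT values. The geometric mean includes MT-ATP8, whose level differed strongly between the tables, so these ratios are not compared across tables. The mean log2 difference was 0.19 (SD 0.08, n = 3 labels, exact permutation p = 0.167, adjusted p = 0.251 over 6 ratios and shares), which is the smallest p the design allows. This was not particular to the light strand, since heavy-strand MT-ND1 also lay above the median difference of the mRNAs under every label, by 0.38, 0.13 and 0.41 on the log2 scale, beside 0.16, 0.22 and 0.17 for MT-ND6. The protocol names no step that marks strand, so strand here is that of the annotated gene. Reads from MT-ND6 and from heavy-strand RNA complementary to it cannot be told apart. MT-ND6 lacks a poly(A) tail, so oligo(dT) may have retained it unevenly between libraries, which was not tested.

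Genes that share an mRNA were compared within libraries. MT-ND4L had 1838, 1326 and 1508 FPKM in G3C2 and 2034, 1631 and 2475 FPKM in WT. MT-ND4 had 3114, 1299 and 1543 FPKM in G3C2 and 3163, 1511 and 2171 FPKM in WT. The ratio of MT-ND4L to MT-ND4 was 0.590, 1.02 and 0.977 in G3C2 replicates 1, b and c, against 0.643, 1.08 and 1.14 in WT, lower in G3C2 in both tables. The mean log2 difference was -0.14 (SD 0.07, n = 3 labels, exact permutation p = 0.167). For reading frames of 1 RNA, the step between the tables was larger than any step between the groups.

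MT-ATP8 showed a still larger step between tables. This small subunit of ATP synthase had 15.35, 129.4 and 137.1 FPKM in G3C2 and 11.35, 210.7 and 217.3 FPKM in WT. Behind these were 71, 710 and 640 reads in G3C2 replicates 1, b and c, and 44, 1294 and 1143 in WT. The ratio of MT-ATP8 to MT-ATP6 was 0.00541, 0.0887 and 0.0835 in G3C2 and 0.00386, 0.105 and 0.0824 in WT. Since both frames lie on the same RNA, the level of MT-ATP8 is uncertain in both tables. The log2 difference of the ratio was 0.09 (SD 0.37, n = 3 labels, exact permutation p = 0.667), with opposite signs in replicates 1 and b.

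**Figure D4:**
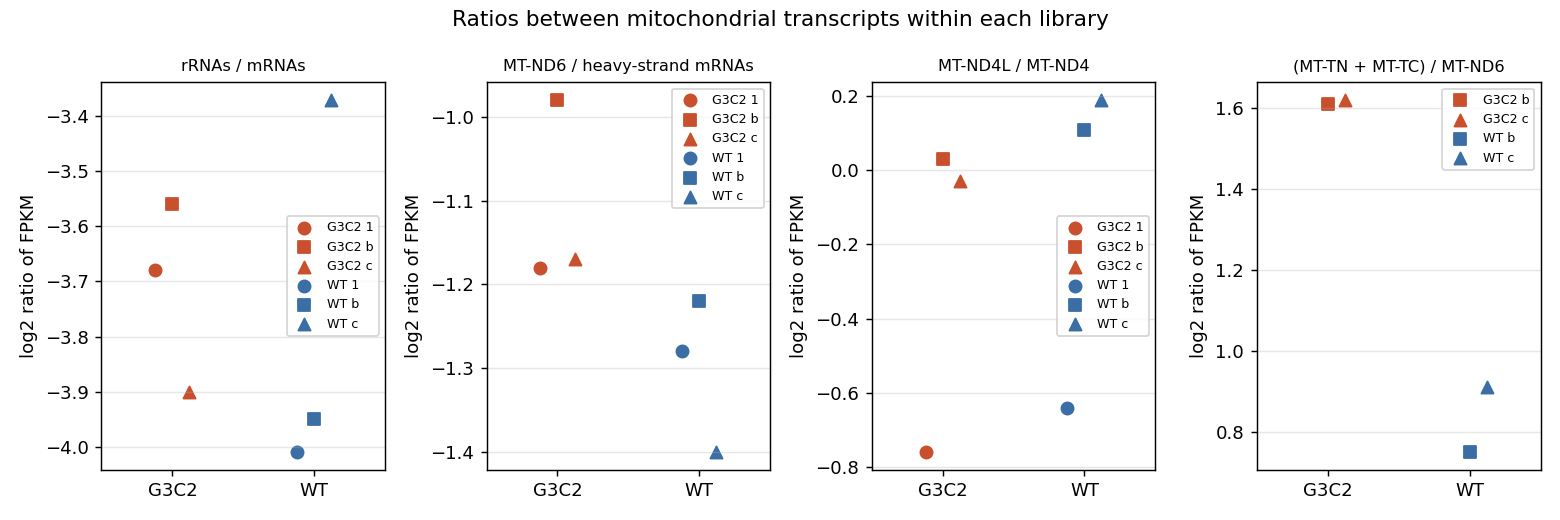
log2 ratios of FPKM within libraries, G3C2 left of WT in each panel, 1 point per library; the last panel has the second table alone. In the MT-ND6 panel the G3C2 points of replicates 1, b and c, -1.18, -0.98 and -1.17, lie above the WT points of the same table. Those are -1.28, -1.22 and -1.40.

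Mature tRNAs carry no poly(A) tail, so reads at their genes here may also come from unprocessed precursors, and they do not measure tRNA content. The tables differed most at these genes. In replicate 1 of both groups, 20 of the 22 were listed at 0, and only MT-TF and MT-TP, which flank the non-coding control region, had values. MT-TF had 2 reads in each library. In the second table all 22 were above 0 in every library except MT-TK, the lysine tRNA, at 0 in WT replicate c, where 3 reads would give 1.69 FPKM. Among 1072 nuclear genes of at most 75 bases, the length of the longest of these tRNAs, 6.62 and 7.09% were above 0 in G3C2 and WT of the first table. For replicates b and c, 8.21 and 8.77% were in G3C2 and 8.77 and 9.51% in WT. Why the tRNA genes differed between the tables was not tested.

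In the second table, tRNA genes for asparagine and cysteine were higher in FPKM in G3C2, against the direction of the mRNAs. MT-TN had 791.0 and 787.0 FPKM in G3C2 replicates b and c, against 484.3 and 635.2 FPKM in WT, from 1531 and 1296 reads in G3C2 and 1049 and 1178 in WT. MT-TC had 683.4 and 709.3 FPKM in G3C2 and 411.6 and 508.7 FPKM in WT. In FPKM neither gene overlapped between groups, as for 22.1% of tested genes, which lay higher in both G3C2 libraries. For MT-TN this depended on the scaling. Set against all recovered reads, 25844651 in G3C2 replicate c and 22614634 in WT replicate c, MT-TN was higher in WT replicate c than in G3C2 replicate c. Limma-voom gave differences of 0.51 (SE 0.27) for MT-TN and 0.61 (SE 0.27) for MT-TC, with adjusted p of 0.644 and 0.618.

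Together these 2 genes made up 70.9 and 68.8% of the FPKM of all tRNA genes in G3C2, against 55.7 and 54.1% in WT. Set against MT-ND6, read from the same strand, their sum was 3.05 and 3.07-fold in G3C2 and 1.68 and 1.88-fold in WT. The log2 difference of this ratio was 0.79 (exact permutation p = 0.333, n = 2 per group, the smallest p that 6 arrangements allow). This ratio was chosen after its values were seen. The first table listed both genes at 0, so this pattern has no value there, and without strand, RNA complementary to them cannot be told apart from them. Neither mature tRNAs nor MT-ND6 carry a poly(A) tail, so oligo(dT) may have retained them unevenly, which was not tested.

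Other tRNA genes had few reads. Between 10 and 13 of the 22 had under 30 reads in each library of the second table. Besides MT-TN and MT-TC, MT-TV, MT-TW, MT-TA and MT-TD were higher in FPKM in both G3C2 libraries than in both WT libraries. This made 6 of 22 in all, where 22.1% of tested genes were. The filter fixed the direction of MT-TW among these. MT-TD, for aspartate, had 40 and 52 reads in G3C2 and 41 and 27 in WT. MT-TV, for valine, had 19 and 23 reads in G3C2 and 20 and 13 in WT. MT-TW, for tryptophan, had 10 and 3 reads in G3C2 and 1 in each WT library, and MT-TA, for alanine, 12 and 6 in G3C2 and 4 and 6 in WT. In reads, which are not scaled to depth, MT-TD and MT-TV overlapped between groups and MT-TA tied. At such counts a few reads move the fold change.

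Another 6 of 22, MT-TF, MT-TI, MT-TY, MT-TL2, MT-TT and MT-TP, were lower in both G3C2 libraries, against 17.9% of tested genes. MT-TP, for proline, at the far end of the heavy-strand units but encoded on the light strand, had 279.7, 210.8 and 219.0 FPKM in G3C2 replicates 1, b and c. In WT it had 322.8, 266.2 and 576.5 FPKM, with WT replicate c as high above WT replicate b (2.17-fold) as the rRNAs were. Its limma difference was -0.64 (SE 0.34, adjusted p = 0.465). MT-TT, for threonine, had 7.43 and 12.8 FPKM in G3C2 replicates b and c and 16.9 and 32.2 FPKM in WT, from 13 and 19 reads in G3C2 and 33 and 54 in WT. MT-TY, for tyrosine, had 61.1 and 53.7 FPKM in G3C2 and 74.1 and 72.8 FPKM in WT. MT-TF had 3 and 1 reads in G3C2 and 8 and 4 in WT, MT-TI 21 and 18 in G3C2 and 24 and 27 in WT, and MT-TL2 20 and 16 in G3C2 and 30 and 22 in WT.

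The remaining 10 overlapped between groups. MT-TL1, the leucine tRNA between MT-RNR2 and MT-ND1, had 92.5 and 115.3 FPKM in G3C2 and 99.3 and 92.4 FPKM in WT. MT-TH had 46.5 and 56.5 FPKM in G3C2 and 52.8 and 42.8 FPKM in WT, and MT-TR 41.2 and 49.1 FPKM in G3C2 and 43.0 and 33.3 FPKM in WT. MT-TS2 had 55 and 30 reads in G3C2 and 68 and 36 in WT, and MT-TG 25 and 45 in G3C2 and 54 and 33 in WT. MT-TS1, MT-TE, MT-TM, MT-TQ and MT-TK had between 0 and 23 reads in any library. These 10 were sorted by that overlap, so it is no separate result about them.

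**Figure D5:**
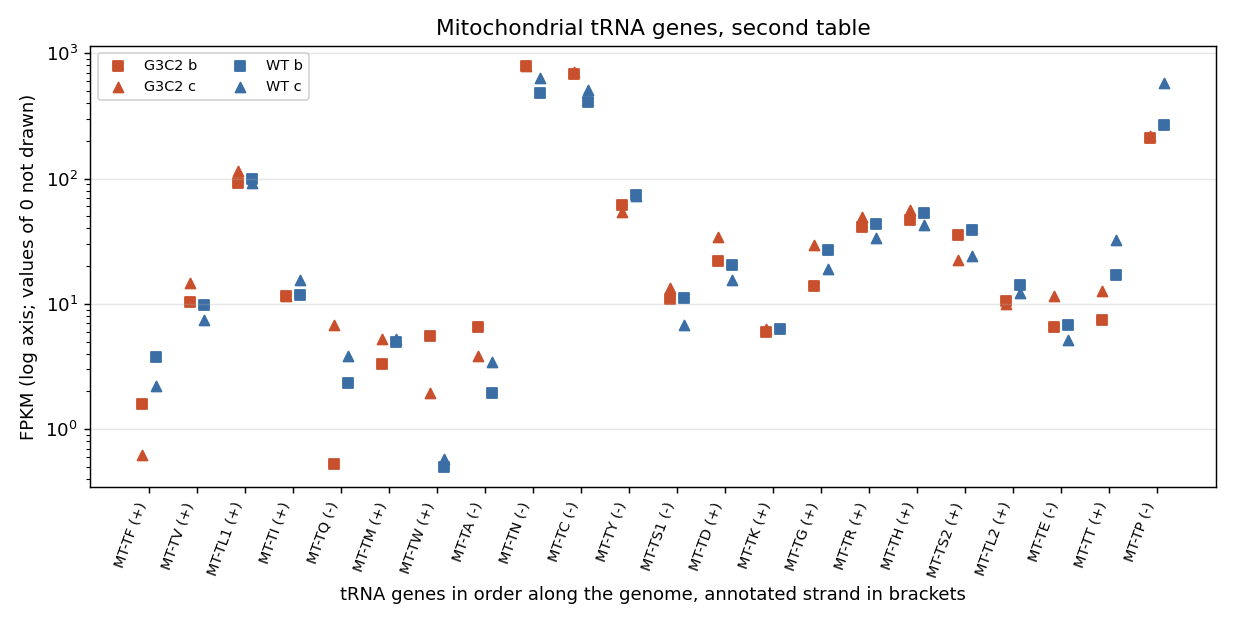
FPKM (log axis) of the 22 tRNA genes in the second table, in genome order with the annotated strand in brackets, G3C2 left of WT. MT-TN and MT-TC lie highest in G3C2, between 683.4 and 791.0 FPKM, and MT-TP is at 576.5 FPKM in WT replicate c.

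Nuclear copies of mitochondrial DNA can take reads from the genes themselves. Of 394 annotated nuclear pseudogenes with such names, 388 were in both tables and 4 had a mean FPKM of at least 1. MTATP6P1, on chromosome 1, matched MT-ATP6 at 98.5% of 681 bases and had 228.1, 104.8 and 105.8 FPKM in G3C2 and 244.7, 137.0 and 184.7 FPKM in WT. This was between 6.45 and 8.33% of the level of MT-ATP6. MTND2P28 had 31.5 and 37.8 FPKM in G3C2 replicates b and c and 45.7 and 64.8 FPKM in WT, beside 10.7 FPKM in G3C2 and 10.8 in WT for replicate 1. MTCO1P12 had 29.3, 9.75 and 9.62 FPKM in G3C2 and 28.6, 9.72 and 14.5 FPKM in WT. MTCO2P12 and MTCO3P12 stayed below 4 FPKM. Summed over these pseudogenes, FPKM was 279.7, 149.8 and 157.1 in G3C2 and 302.5, 195.3 and 268.7 in WT, ordering the libraries of each table as MT-ATP6 and MT-ND2 did. Adding them to the mitochondrial genes left the log2 difference of the share at -0.46.

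Nuclear genes of mitochondrial gene expression and respiration were described from 12 lists with 171 genes, of which 168 were tested. By limma 0 were called higher and 0 lower. The 83 genes of 6 lists that maintain, copy, process or translate the genome had a median limma difference of 0.11, beside 0.01 over all tested genes, and 4 were under 0.05 before adjustment. The 75 tested subunits of the respiratory complexes had a median of 0.32, with 6 under 0.05 before adjustment, and the 10 tested biogenesis regulators 0.19, with 2. Over all tested genes, 13.6% were under 0.05 before adjustment. Of 10 transcription factors and polymerase genes, 1 was lower and 1 higher in G3C2 under all 3 labels, where 18.6% of tested genes were lower and 17.8% higher. TFAM, which packages mitochondrial DNA and starts its transcription, had 106, 24.5 and 38.5 FPKM in G3C2 and 104, 25.5 and 19.4 FPKM in WT. POLRMT, the mitochondrial RNA polymerase, had 27.7, 14.3 and 22.3 FPKM in G3C2 and 43.7, 16.4 and 14.1 FPKM in WT. Neither kept 1 direction.

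For genes of RNA stability and decay (16 tested) the median difference was -0.15 in replicate 1, -0.01 in b and 0.77 in c. LRPPRC, which binds and stabilises mitochondrial mRNAs, had 214, 26.4 and 44.5 FPKM in G3C2 and 235, 26.7 and 19.3 FPKM in WT. GRSF1, of the RNA granules, had 105, 25.8 and 39.1 FPKM in G3C2 and 117, 26.9 and 22.6 FPKM in WT. For both, replicate c alone lay higher in G3C2. Medians were -0.31, -0.01 and 0.56 for RNA end processing (11 tested), -0.31, -0.08 and 0.49 for RNA modification (19), -0.14, -0.12 and 0.48 for translation factors (14) and -0.15, -0.04 and 0.52 for DNA maintenance (13). Their most abundant members followed no common direction in replicates 1 and b, and all but RRM2B were higher in G3C2 in replicate c. HSD17B10, a subunit of the enzyme that cuts tRNA 5′ ends, had log2 differences of -0.45, -0.18 and 0.39, and REXO2, which degrades short RNA fragments, 0.09, 0.14 and 0.61. The tRNA-modifying CDK5RAP1 had -0.27, 0.14 and 0.92, and the rRNA methyltransferase MRM2 -0.13, -0.09 and 1.14. The translation elongation factor TUFM had -0.37, -0.18 and 0.72, and the initiation factor MTIF2 -0.15, -0.16 and 0.51. Of the nucleotide supply genes, DGUOK had -0.02, 0.02 and 1.29, and RRM2B 0.19, 0.36 and -0.61.

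Among 10 tested regulators of mitochondrial biogenesis, 5 were higher in G3C2 under all 3 labels, where 17.8% of tested genes were. YY1, a zinc-finger transcription factor, had 84.0, 20.8 and 24.9 FPKM in G3C2 and 51.5, 14.0 and 8.99 FPKM in WT (difference 0.87, SE 0.20, adjusted p = 0.185). PRKAA1, a catalytic subunit of AMP-activated kinase, had 152, 28.8 and 32.7 FPKM in G3C2 and 123, 20.3 and 18.5 FPKM in WT (0.53, SE 0.16, adjusted p = 0.248). In the second table YY1 and PRKAA1 were higher in both G3C2 libraries than in both WT libraries, as were 22.1% of tested genes.

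The nuclear subunits of the respiratory complexes had median differences between -0.20 and 0.20 in replicates 1 and b and between 0.69 and 1.24 in c. Over all tested genes the medians were -0.08, -0.01 and 0.07 in replicates 1, b and c. Complex I subunits (36 tested) had 0.06, 0.02 and 0.78, with 15 higher and 0 lower in G3C2 under all 3 labels, where 17.8% of tested genes were higher and 18.6% lower. Higher under all labels were also 3 of 4 tested subunits of complex II, 2 of 9 of complex III, 2 of 11 of complex IV and 6 of 15 of ATP synthase, and 0 of these were lower. Such counts take in very small steps. NDUFA3 of complex I, for example, had 24.2, 0.0152 and 0.0716 FPKM in G3C2 and 22.2, 0.0 and 0.0636 FPKM in WT. Some nuclear subunits also differed strongly between the tables. NDUFS3 had 86.4 FPKM in G3C2 and 114 in WT in replicate 1, but at most 0.0214 in the second table. The 7 mitochondrial complex I genes, summed, had -0.04, -0.28 and -0.46. For complex IV the nuclear medians were 0.09, -0.20 and 1.09 (11 tested), beside -0.12, -0.38 and -0.72 for the summed mitochondrial genes. For ATP synthase they were 0.20, -0.02 and 1.24 (15 tested), beside -0.05, -0.48 and -0.68. Complex III had 0.06, -0.08 and 1.17 (9 tested), beside -0.16, -0.47 and -0.80 for MT-CYB, and complex II, with no mitochondrial gene, 0.11, 0.10 and 0.69 (4 tested). Nuclear medians and mitochondrial sums thus had opposite signs for complexes I, III, IV and V in replicates 1 and c, and for complex I alone in replicate b. In replicate 1 the sums of complex I and ATP synthase, -0.04 and -0.05, were not below the median over all tested genes, -0.08. The measures are unlike, since a median of log2(FPKM + 1) differences weighs genes equally and a sum of FPKM follows its most abundant genes. WT replicate c, which stood apart in the mitochondrial share, enters every difference for c, and no leave-out without it is given for the nuclear lists.

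By the rule for listed genes, NDUFB1, a small complex I subunit, had 83.1, 21.4 and 23.3 FPKM in G3C2 and 29.2, 11.2 and 4.42 FPKM in WT (difference 1.5, SE 0.30, adjusted p = 0.154). ATP5F1B, the catalytic subunit of ATP synthase, had 1370, 404 and 515 FPKM in G3C2 and 827, 285 and 176 FPKM in WT (0.92, SE 0.27, adjusted p = 0.244). CYC1, cytochrome c1 of complex III, had 290, 234 and 353 FPKM in G3C2 and 323, 255 and 139 FPKM in WT, and UQCRH of the same complex 388, 119 and 174 FPKM in G3C2 and 394, 123 and 76.8 FPKM in WT. In both, the difference lay in replicate c. COX7C of complex IV had 671, 177 and 216 FPKM in G3C2 and 567, 174 and 112 FPKM in WT (0.41, SE 0.24, adjusted p = 0.511). Log2 differences were 0.21, 0.04 and 1.16 for NDUFS5 and -0.06, -0.42 and 1.96 for NDUFB9 of complex I, 0.14, 0.24 and 1.52 for SDHB and 0.08, 0.14 and 0.94 for SDHD of complex II, 0.09, -0.13 and 1.12 for COX6B1, and -0.18, -0.25 and 1.15 for ATP5PB of ATP synthase. None of these passed the threshold.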

How the data were processed

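Poly(A)-enriched RNA of 6 libraries was deposited by the authors as FPKM in 2 tables. Per the submitters' processing notes, CASAVA, HISAT2 and build GRCh38.p12 were used. How reads were counted, with which strand setting and gene lengths, is not given in the sources used here. Libraries were grouped by sample title. Reads were recovered from FPKM with GENCODE 29 exon lengths. For all genes 97.3 to 97.4% of the second table's values came out whole and 34.0 to 35.6% of the first's, so totals (22614634 to 28977502 reads) exist for the second table only. The divisors behind those FPKM, 22558753 to 29670501, differ from these totals, so the values carry a library scaling that the labels do not name.

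The main test was limma 3.58.1 (R 4.3.3) on log2(FPKM + 1) with terms for genotype and table. It used the trend option, adjusted p by Benjamini-Hochberg (threshold 0.05), and kept genes that reached an FPKM of 1 in 2 or more libraries. Fold changes on this scale understate changes of low genes. Shares and ratios were tested by exact permutation within tables. Scripts were tested on simulated data. Same-label libraries deviated together (r = 0.934, 0.801 and 0.595), which the separate tables alone can give; within the second table r was -0.165. Named were all mRNAs, rRNAs and tRNAs and, per list, its most abundant or steadily shifted genes (by 0.5 in log2). Members and lists were chosen with earlier results of these data known. Python 3.11.15, pandas 2.3.3, scipy 1.17.1 and matplotlib 3.10.9 were used.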

Additional observations from a re-analysis of the deposited data

How the results depend on the processing

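No setting gave a call among the mitochondrial genes, and the median log2 difference of the 13 mRNAs lay between -0.51 and -0.29 over 11 alternatives and between -0.44 and -0.18 over 9 leave-outs, against -0.32. Dividing by the summed FPKM of nuclear genes moved the median of all tested genes to -0.129 and giving libraries 1 common sum moved it to -0.108; the mRNA medians there were -0.51 and -0.46. Genes called over all genes by limma numbered 7. There were 0 without a filter (2990 under 0.05 before adjustment), 0 with no table term (223), 0 in the second table by itself (1110), 0 with 1 common sum (2033), 1 with the replicate block, 2 scaled to nuclear genes, 3 at a mean FPKM of at least 5, and 11 with equal medians. Limma-voom gave 9. Leave-outs gave 0 to 905, with 905 without replicate c, 211 without replicate b and 17 without G3C2 replicate c. The replicate block changed no call among the shares and ratios (mitochondrial share -0.46, exact p = 0.25, the smallest of 8 arrangements). The crossed labels, chosen after the data were seen, gave 8 calls and 9 mRNAs lower under every label, against 10. Scaling to the median of tested genes gave 6 mRNAs. Neither of these counts of mRNAs has a share over all genes beside it. MT-ND1 was 0.02 with equal medians and lay between -0.15 and 0.15 over leave-outs, MT-RNR2 between -0.60 and 0.17, above 0 without WT replicate c and without replicate c. The rRNA to mRNA ratio was -0.07 with the second table alone and -0.10 to 0.36 over leave-outs. The MT-ATP8 to MT-ATP6 ratio was -0.11 with the second table alone and -0.11 to 0.25 over leave-outs. For these changes the cause was not tested. The permutation design cannot pass 0.05, so its p-values say nothing of stability.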
